A study of Mus musculus with 4 samples.

Results

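The Serpina3 cluster is a group of neighbouring serine protease inhibitor genes on mouse chromosome 12. The 9 members considered here are Serpina3c, Serpina3f, Serpina3g, Serpina3h, Serpina3i, Serpina3j, Serpina3k, Serpina3m and Serpina3n, chosen by symbol. They were found on the arrays by matching each probe's RefSeq accession to those symbols. Of the 9, 8 had a matched probe, out of 23461 genes named on the arrays. Serpina3f and Serpina3i each had 2 probes and the other members 1, which made 10 probes among the 56599 present on every array. No probe was matched to Serpina3g through the RefSeq gene table used for the names, so its level was not analysed here.

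Total RNA of whole mouse brain was hybridised to 4 single-colour arrays, 1 per group. The groups were wild-type mice given phosphate-buffered saline (PBS), Nav1.8CreROSA26DTA mice given PBS, wild-type mice given lipopolysaccharide (LPS) and Nav1.8CreROSA26DTA mice given LPS. LPS, an endotoxin from the wall of Gram-negative bacteria, was injected into the peritoneum at 20 mg/kg and the brain was taken 12 h later. In the Nav1.8CreROSA26DTA line, Cre is made where the promoter of Nav1.8, a sodium channel of pain-sensing neurons, is active, and a ROSA26 allele then makes diphtheria toxin A in those cells. The sensory neurons that this ablates, chiefly nociceptors, have their cell bodies outside the brain. The age and sex of the mice, the timing of the PBS injection and whether an array held 1 mouse or a pool are not given in the sources used here. A group and its single array therefore cannot be told apart.

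Serpins bait a protease with an exposed loop, and once the loop is cut the serpin folds around the protease and locks it in a dead complex. Humans carry a single SERPINA3 gene, for alpha-1-antichymotrypsin, a plasma protein of the acute phase that blocks cathepsin G and chymase. In the mouse that locus has been duplicated many times, and the copies differ mainly in the bait loop and therefore in the proteases they can catch. Serpina3n, a secreted inhibitor of granzyme B and other proteases, is a widely used marker of reactive astrocytes. Serpina3k is known chiefly as contrapsin, a trypsin inhibitor of plasma made in the liver. Serpina3g is an intracellular inhibitor of cysteine cathepsins in blood cells. In many tissues, genes of this family respond to cytokines that act through STAT, NF-kB and C/EBP transcription factors.

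Promoter sequences are shown first because the members that were higher with LPS are closely related copies of one another. RefSeq promoter windows of build GRCm38.p6, from 250 bases before to 50 after a gene start, were at hand for 6 of the 9 members. Serpina3h, Serpina3k and Serpina3m are named only. Serpina3f had 2 windows, of which the upstream one is used. The 250 bases upstream of the start are printed 5′ to 3′ on the gene's strand for Serpina3n (chr12:104406458-104406707, plus strand), Serpina3f (chr12:104214294-104214543, plus strand) and Serpina3i (chr12:104262872-104263121, plus strand), 3 members that passed the test of the LPS effect. Of these, Serpina3f and Serpina3i entered that test only through the LPS arrays, on which they were bright. Capitals mark matches on either strand to the STAT letters TTCNNNGAA or the same with 4 bases between TTC and GAA, to the NF-kB letters GGG and CC with any 5 bases between, or to the interferon response letters GAAA repeated after any 2 bases.
Serpina3n: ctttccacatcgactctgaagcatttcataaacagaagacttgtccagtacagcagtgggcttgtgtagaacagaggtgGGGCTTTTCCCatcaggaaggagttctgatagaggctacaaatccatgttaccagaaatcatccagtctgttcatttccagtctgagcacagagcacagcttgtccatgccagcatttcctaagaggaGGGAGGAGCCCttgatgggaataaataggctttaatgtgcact
Serpina3f: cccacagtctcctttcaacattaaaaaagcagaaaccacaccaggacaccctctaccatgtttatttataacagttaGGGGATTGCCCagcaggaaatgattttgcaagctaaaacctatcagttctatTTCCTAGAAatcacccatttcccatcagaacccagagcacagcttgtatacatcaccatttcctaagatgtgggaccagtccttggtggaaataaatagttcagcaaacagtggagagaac
Serpina3i: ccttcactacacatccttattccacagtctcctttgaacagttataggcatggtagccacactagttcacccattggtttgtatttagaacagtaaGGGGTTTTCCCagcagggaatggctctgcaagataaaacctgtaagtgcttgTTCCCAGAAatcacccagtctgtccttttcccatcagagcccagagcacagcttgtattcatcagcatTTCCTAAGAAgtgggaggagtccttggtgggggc

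Serpina3f and Serpina3i each held a 3-base-spacer STAT match, TTCCTAGAA in Serpina3f and TTCCCAGAA in Serpina3i. Such a match was present in 8.3% of 32851 RefSeq windows of 300 bases. Serpina3n had none. At the same place in its window stood TTACCAGAA, which departs from TTCNNNGAA by 1 base, C3A, with positions counted from 1 at the 5′ end of the motif. Serpina3c, whose probe was dim on every array, carried the same C3A. The stretches around this place are set side by side for 5 genes. Among the fixed STAT letters only position 3 differs between them, while the spacer and the flanks differ as well. The place was found by the letters gaaatca, so the shared GAA was given in advance. Here capitals mark only the 9 letters compared with the STAT motif.
Serpina3n: caaatccatgTTACCAGAAatcatccagt
Serpina3c: taaatccataTTACCAGAAatcatccagt
Serpina3f: tcagttctatTTCCTAGAAatcacccatt
Serpina3i: taagtgcttgTTCCCAGAAatcacccagt
Serpina3g: taagttatagTTCCCAGAAatcacccggt

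The 9 letters began 123 bases before the start in Serpina3n, 120 in Serpina3c, 121 in Serpina3f, 102 in Serpina3i and 33 in Serpina3g. In a pairwise alignment, 229 of 247 bases (92.7%) were identical between the windows of Serpina3n and Serpina3c. Serpina3n shared 70.1% with Serpina3f and 76.1% with Serpina3i, and Serpina3f shared 80.8% with Serpina3i. The NF-kB letters matched 4 times at 2 places in Serpina3n, overlapping at each place, and 2 overlapping times each in Serpina3f and Serpina3i. They matched once in Serpina3g and 0 times in Serpina3c. This motif is loose, since 50.8% of all windows held it. The C/EBP letters TTNNGNAA matched 2 times in Serpina3n, 3 in Serpina3f, 3 in Serpina3g, 1 in Serpina3i and 1 in Serpina3c, against 40.7% of all windows with at least 1 match, and some overlapped other motifs. The letters AGAACA, only a part of the glucocorticoid receptor element, were held by 19% of all windows. They matched 2 times in Serpina3i, 1 time each in Serpina3n, Serpina3f and Serpina3c, and 0 times in Serpina3g. Serpina3i also held a STAT match with a 4-base spacer, which 6.95% of all windows held, and no window of these 5 genes held the interferon response letters (3.44% of all windows). The Serpina3j window, from a start that did not line up with those of the other members, aligned over 83 bases with Serpina3f (67.5% identical) and over 70 with Serpina3c (68.6%). It held 0 STAT, 0 interferon response and 0 C/EBP matches, 2 overlapping NF-kB matches downstream of the start and 1 AGAACA. A match describes letters and was not tested for binding.

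**Figure D1:**
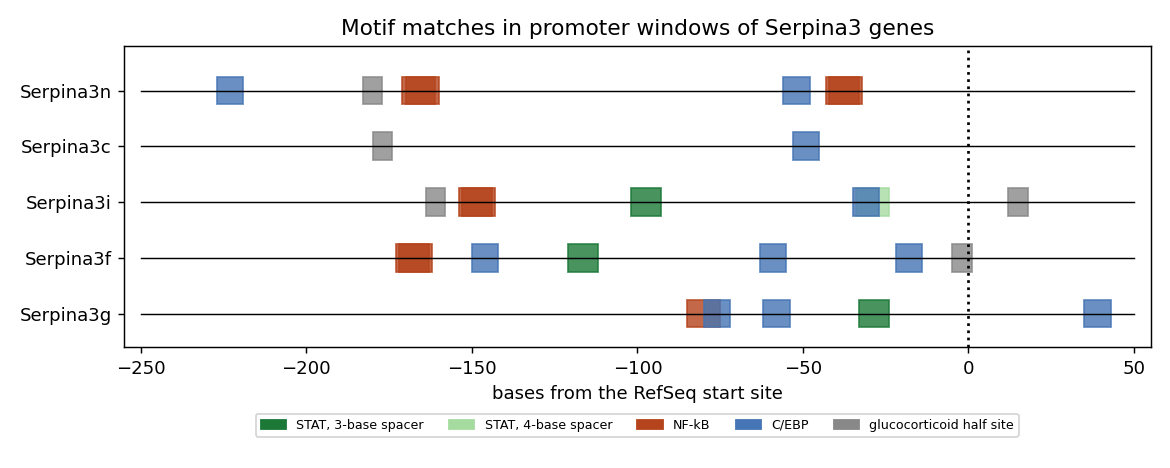
Motif matches in the promoter windows of 5 Serpina3 genes, drawn to scale from 250 bases before to 50 bases after the RefSeq start (dotted line), with 1 row per gene and overlapping boxes where motifs overlap. The 3-base-spacer STAT box is present in Serpina3i, Serpina3f and Serpina3g and missing in Serpina3n and Serpina3c, and Serpina3n has NF-kB boxes at 2 places.

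Signals are given as the scanner software's processed intensity of each array. A level is log2 of that signal over the 75th percentile of the same array, and a difference is a difference of levels. Spots marked by the software as well above background are called measured, and the others dim. A probe that was dim on all arrays of a group has only a bound there, set at the lowest signal of any probe measured on that array or its own signal if higher. Every member probe was printed as 1 spot per array, so no member has a spot error of its own. The median SD between repeated spots was 0.0902 to 0.107 on the log2 scale for the 3 to 7 repeatedly printed probes with signals between 10 and 300. Probe sequences were not at hand, and the members are near copies, so which Serpina3 gene a signal belongs to is uncertain for every member.

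Serpina3n gave the brightest signals of the family: 75.9 on the wild-type PBS array, 57.2 on the Nav1.8CreROSA26DTA PBS array, 1885 on the wild-type LPS array and 3594 on the Nav1.8CreROSA26DTA LPS array. Both LPS arrays lay far above both PBS arrays, with no overlap. Between 2 arrays the LPS difference was 4.59 log2 in wild-type and 5.48 log2 in Nav1.8CreROSA26DTA brains. Averaged over genotypes, the LPS effect was 5.03 ± 0.19 (SE) on the log2 scale, a 32.7-fold increase (limma, n = 2 arrays per side, adjusted p = 6.6e-07).

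Serpina3f and Serpina3j were dim with PBS and measured with LPS. They, and Serpina3i, entered the test only through the LPS arrays on which they were bright, so their adjusted p-values rest on dim PBS signals and are given beside the bounds as a description. The first Serpina3f probe gave 2.15 and 2.17 on the wild-type and Nav1.8CreROSA26DTA PBS arrays, then 99.1 and 244 on the LPS arrays in the same order. Its second probe gave 3.40, 1.95, 63.0 and 132 in that order. Both probes were therefore dim on both PBS arrays, and with LPS the signal stood at least 16.1-fold (first probe) and at least 9.49-fold (second probe) higher, averaged over genotypes. The limma fit gave Serpina3f an adjusted p of 1.4e-05. Serpina3j gave 7.02 and 6.29 with PBS and 99.3 and 165 with LPS, again wild-type first. It was at least 13.3-fold higher with LPS, and its fitted adjusted p was 3.2e-05 (limma).

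Serpina3i followed with lower signals. Its representative probe gave 4.18 on the wild-type PBS array, 6.67 on the Nav1.8CreROSA26DTA PBS array, 31.1 on the wild-type LPS array and 72.2 on the Nav1.8CreROSA26DTA LPS array. The other probe gave 2.01, 2.19, 39.9 and 74.4. Only the LPS arrays measured it, and the increase was at least 4.93-fold by the first probe and at least 5.66-fold by the other. Its fitted adjusted p was 0.00105 (limma). Fits with 1 array left out held injection alone. In them Serpina3i missed the threshold without the wild-type PBS array (2.43 log2) or without the Nav1.8CreROSA26DTA LPS array (2.39 log2).

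Serpina3m was measured on all arrays, with signals of 12.5 in wild-type PBS, 21.7 in Nav1.8CreROSA26DTA PBS, 50.7 in wild-type LPS and 137 in Nav1.8CreROSA26DTA LPS. The 4 arrays were thus ordered by injection first and by genotype within each injection. The LPS effect was 2.06 ± 0.26 (SE) log2, or 4.18-fold (limma, n = 2 arrays per side, adjusted p = 0.00101). After normexp background correction with an offset of 50, a setting that pulls low signals together, it was 0.65 log2 (adjusted p = 0.0145). In the fits of injection alone with 1 array left out, Serpina3m missed the threshold 3 times. These were without wild-type PBS (1.54 log2), without Nav1.8CreROSA26DTA PBS (2.59 log2) and without Nav1.8CreROSA26DTA LPS (1.45 log2).

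Serpina3h, which RefSeq annotates as a transcribed pseudogene, showed signals of 28.7, 18.3, 42.9 and 77.8 in the same order. Both LPS arrays exceeded both PBS arrays, but the difference was 0.53 log2 in wild-type and 1.59 log2 in Nav1.8CreROSA26DTA brains. The averaged effect of 1.06 ± 0.31 (SE) log2 missed the threshold (limma, adjusted p = 0.0678), and with arrays scaled to the median it passed at 1.003 log2 (adjusted p = 0.0482). After normexp it was 0.21 log2 (adjusted p = 0.554).

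Serpina3k did not pass the test. It gave 13.0 and 10.7 with PBS, both measured, and 8.94 and 11.6 with LPS, both dim. The signals of the injections overlapped, but after scaling both PBS levels (-5.55 and -5.58) lay above both LPS levels (-6.15 and -5.97). With dim signals set at their bound, it was 1.29-fold lower with LPS (0.37 log2), and after normexp the difference was -0.30 log2. The SE was 0.352 log2 in the fit at the bound and 0.216 log2 in the normexp fit. Neither passed (limma, adjusted p = 0.589 and 0.466), so a fall was not established. As reported, the fitted difference was -0.49 ± 0.43 (SE) log2, and limma gave an adjusted p of 0.553. Serpina3c, which encodes a kallikrein-binding family member, was dim on every array at 1.96, 2.13, 4.33 and 13.3, and was not tested.

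**Figure D2:**
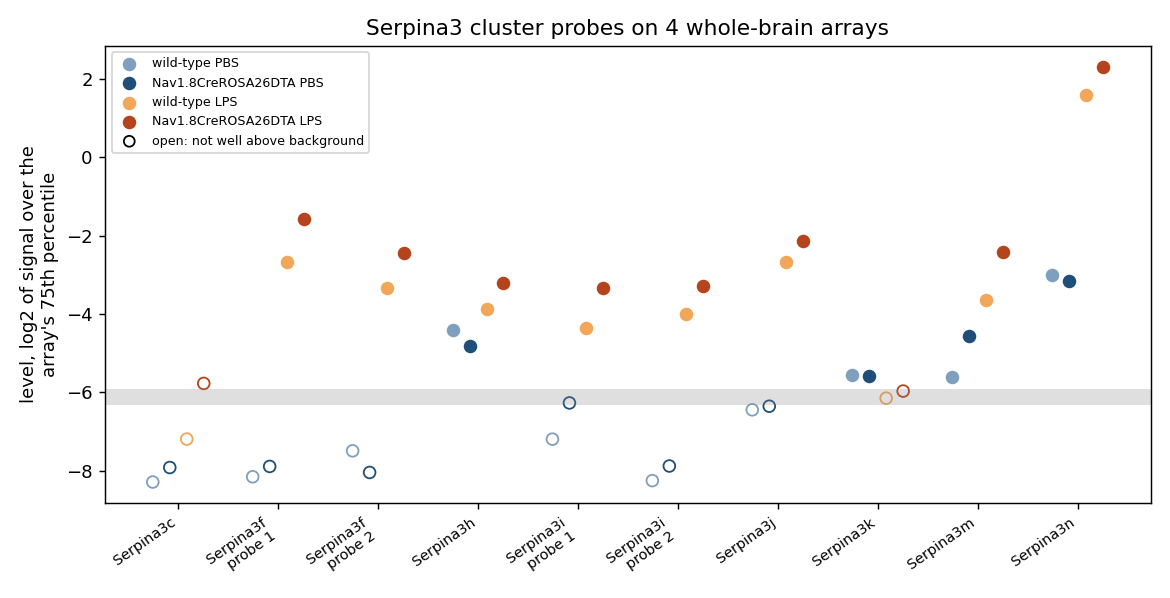
Level of each of the 10 Serpina3 probes on the 4 arrays, as log2 of signal over the array's 75th percentile, with 1 point per array, open points for signals not well above background and a grey band for the range of the arrays' lowest measured signals. The LPS points of Serpina3n, Serpina3m, Serpina3h, Serpina3f, Serpina3i and Serpina3j lie above their PBS points, which are open for Serpina3f, Serpina3i and Serpina3j. Those of Serpina3c do so too, with all its points open. For Serpina3k the LPS points are open and lie below the PBS points. The share of all genes without overlap between injections was not counted.

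Of the 7 members tested, 5 were higher with LPS, 0 were lower and 2 did not pass. Among all 17132 genes tested, 5.62% were higher and 4.54% lower. The share among members cannot be read against those shares, because Serpina3f, Serpina3i and Serpina3j entered the test only through the LPS arrays on which they were bright. Serpina3n and Serpina3m, with Serpina3h, form the 3 members measured on all arrays, and the first 2 passed. The median LPS effect over all genes tested was -0.0328 log2. By size of the fitted increase among all genes tested, Serpina3n ranked 18th, Serpina3m 233rd and Serpina3h 597th. Serpina3f, Serpina3i and Serpina3j have only bounds and are not ranked.

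The size of the LPS difference was next set side by side in the 2 genotypes, where 1 array stood against 1 and no test exists. In wild-type brains 2 of the 3 members measured on both arrays were at least 2-fold higher with LPS, beside 3.41% of 16494 genes. In Nav1.8CreROSA26DTA brains it was 3 of 3, beside 3.1% of 16530 genes. All 3 were higher by some amount in each genotype, as were 45.6% of all genes in wild-type and 44.6% in Nav1.8CreROSA26DTA brains. None was 2-fold lower, beside 0.618% and 1.42% of genes. Serpina3h had a response larger by 1.06 log2 in Nav1.8CreROSA26DTA brains, Serpina3n by 0.89 and Serpina3m by 0.19. After normexp these values were 0.16, 0.75 and 0.33 log2. The response was the larger one in Nav1.8CreROSA26DTA brains for 44.8% of all 16244 genes measured on every array. For Serpina3f (first probe) the bound was at least 12.6-fold higher with LPS in wild-type brains. In Nav1.8CreROSA26DTA brains it was at least 20.7-fold. The bounds of Serpina3j were at least 12.6-fold and at least 14.0-fold higher in the same order. Bounds limit each response from below and do not order the genotypes.

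**Figure D3:**
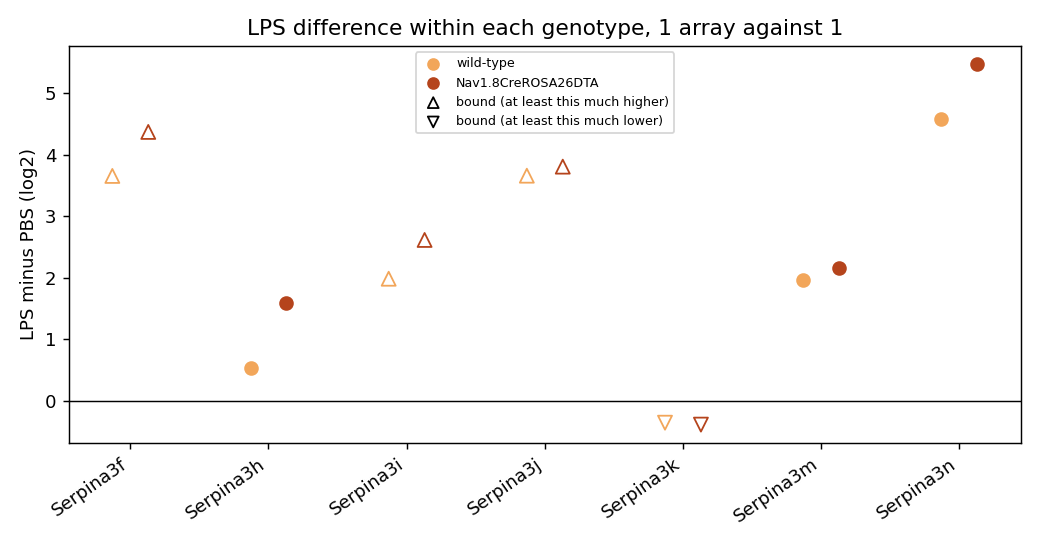
LPS minus PBS difference of each tested member on the log2 scale in wild-type and Nav1.8CreROSA26DTA brains, each point 1 array against 1, with triangles for bounds where one side was dim. Serpina3n lies at 4.59 and 5.48, Serpina3h at 0.53 and 1.59 and Serpina3m at 1.97 and 2.16.

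The comparison of genotypes within the LPS injection uses 2 arrays that both measured 6 members. All 6 were higher on the Nav1.8CreROSA26DTA LPS array than on the wild-type LPS array, as were 50.8% of all genes, and none was 2-fold lower, beside 0.369%. The difference was 1.23 log2 for Serpina3m, 1.10 for Serpina3f (0.87 by its second probe), 1.01 for Serpina3i (0.70 by its other probe), 0.73 for Serpina3n, 0.66 for Serpina3h and 0.53 for Serpina3j. It was at least 2-fold for 3 of the 6, beside 0.829% of all 16520 genes, and at least 1.5-fold for 5 of the 6, beside 3.1% of all genes. Signals of those 3 members, and of Serpina3h and Serpina3j, lay between 10 and 300 on both LPS arrays. For 3 repeatedly printed probes in that range, the median SD between spots was 0.107 log2 on the wild-type LPS array. It was 0.102 log2 on the Nav1.8CreROSA26DTA LPS array. The part of spot scatter in the differences was not tested. The shares were taken over genes of all intensities. Among the 962 genes that were higher with LPS and measured on both arrays, 13.4% differed by at least 1.5-fold in this direction and 66% were higher by any amount. Serpina3h, which missed the threshold for LPS, is not one of these 962. After normexp the difference was 0.62 log2 for Serpina3m, 0.84 for Serpina3f, 0.41 for Serpina3i, 0.72 for Serpina3n, 0.19 for Serpina3h and 0.26 for Serpina3j, so that 0 of the 6 reached 2-fold. With the mean over probes 1 of the 6 did. As reported, the median difference was 0.87 log2 for the 6 members, 0.11 for those 962 genes and 0.00367 for all genes. Since paralog signals may share RNA, the members are not independent observations, and a single pair of arrays gives no test.

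Markers of several cell types moved in the same pair of arrays. All 6 oligodendrocyte markers were higher on the Nav1.8CreROSA26DTA LPS array, with a median of 0.96 log2 and a summed level, in units of the 75th percentile, of 156 against 70.7. Of 8 neutrophil and monocyte markers measured on both arrays, 6 were higher, with a median of 0.24 log2. The summed level of the list was 27.7 against 29.1. That sum mostly follows Ly6c2, by far the brightest of the list, at 4.31 against 4.57 log2. All 4 red cell markers measured were higher, with a median of 0.71 log2 and sums of 177 against 110.5. Astrocyte markers, 5 of 6 of them higher, differed by a median of 0.07 log2 and summed to 248 against 246.5. Microglial markers differed by a median of -0.07 log2 with 3 of 6 higher, and summed to 30.2 against 30.0. All 6 endothelial markers were lower, with a median of -0.21 log2. Of the neuron markers 0 of 5 were higher (median -0.07 log2), and of the measured hepatocyte markers 0 of 3 (-0.22). Of the measured choroid plexus markers 1 of 3 was higher (-0.03), and of the T and NK cell markers 1 of 3 (-0.11). In bulk tissue, fewer cells of a type and less RNA per cell cannot be told apart. The part of these cell types in the Serpina3 differences was not tested.

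**Figure D4:**
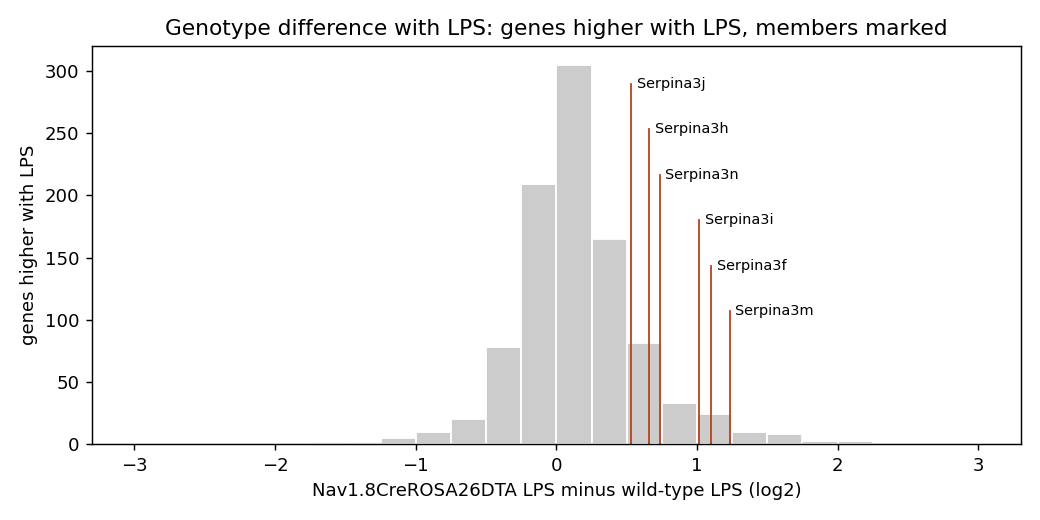
Histogram of the Nav1.8CreROSA26DTA LPS minus wild-type LPS difference (log2, 1 array against 1) for the genes that were higher with LPS, with the 6 measured Serpina3 members as vertical lines whose heights carry no value. The members lie between 0.53 (Serpina3j) and 1.23 (Serpina3m), to the right of the genes' median of 0.11. Serpina3h is marked but missed the threshold for LPS, so it is not among the genes of the histogram.

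With PBS, 4 members were measured on both arrays. Serpina3m was 1.04 log2 higher in the Nav1.8CreROSA26DTA brain (0.28 after normexp), the 1 of 4 that reached 2-fold, beside 1.21% of 16627 genes, and the 1 of 4 that was higher by any amount, beside 57.3%. None was 2-fold lower, beside 0.415%. Serpina3n differed by -0.16 log2, Serpina3h by -0.40 and Serpina3k by -0.03. On the same arrays all 4 measured red cell markers were higher in Nav1.8CreROSA26DTA (median 3.07 log2, summed levels 342 against 46.2), as were 6 of 6 neutrophil and monocyte markers (median 1.24 log2) and 6 of 6 oligodendrocyte markers (median 0.50 log2). The same held for 4 of 4 T and NK cell markers (median 0.52 log2), 6 of 6 microglial (0.29) and 6 of 6 astrocyte markers (0.27), and for 5 of 6 endothelial (0.13) and 3 of 4 choroid plexus markers (0.50). Of the neuron markers 2 of 5 were higher (-0.02). The part of these markers' cells in the Serpina3m difference was not tested.

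Averaged over injections, no member passed the test for genotype in either direction, which 0.304% of 17132 genes passed in the higher and 0.105% in the lower direction. At an unadjusted p under 0.05 (limma) there were 2 of the 7 members tested, Serpina3m and Serpina3i, beside 10.2% of all genes. Serpina3i entered the test only through the LPS arrays, so the count cannot be read against that share. Serpina3m was the nearest to the adjusted threshold, 1.14 ± 0.26 (SE) log2 higher in Nav1.8CreROSA26DTA brains and higher in 2 of 2 injections (limma, adjusted p = 0.117). Serpina3i followed at 0.97 ± 0.37 log2 (adjusted p = 0.389, with dim PBS signals), then Serpina3f at 0.68 ± 0.37 (adjusted p = 0.603, also with dim PBS signals). Serpina3n differed by 0.29 ± 0.19 log2 (adjusted p = 0.692). These p-values do not show that the levels were alike.

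Other serpins were read on the same arrays. Of the other clade A serpins listed, which include the alpha-1-antitrypsin genes and the hormone-binding serpins, 7 of 16 could be tested and 0 passed in either direction. Their median LPS effect was -0.09 log2, and 8 were dim on all arrays. Serpina3b, a neighbour of the members by name, was measured on all arrays and changed by -0.19 log2 (limma, adjusted p = 0.733). Serpina1b changed by -0.09, Serpina9 by -0.09, Serpina1f by -0.41, Serpina1e by -0.23 and Serpina1a by -0.04 log2, and Serpina11 by -0.00434.

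Among serpins of other clades, 5 of 18 tested were higher with LPS, 2 were lower and 11 did not pass, with a median of 0.07 log2. Serping1, the C1 inhibitor of the complement and contact systems, rose by 1.84 ± 0.16 (SE) log2 (limma, adjusted p = 9.7e-05). Serpinf2, the inhibitor of plasmin, rose by 2.72 ± 0.39 log2 but was dim on the wild-type PBS array. Serpinb5 was at least 2.12-fold higher with LPS, being dim on both PBS arrays, and Serpinb6b, an intracellular serpin, fell by 1.23 ± 0.24 log2. The adjusted p-values of Serpinf2, Serpinb5 and Serpinb6b ran from 0.00224 to 0.0124 (limma). No test was made of whether the Serpina3 members differ from these lists.

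Proteases that serpins of this kind may meet were listed as well, and 5 of 20 tested were higher with LPS, 1 was lower and 14 did not pass, with a median of 0.16 log2. Ctsc, cathepsin C, which activates the granule serine proteases, rose by 2.28 ± 0.14 (SE) log2 (limma, adjusted p = 9.9e-06), and was the listed protease that also passed for genotype (0.85 log2 higher in Nav1.8CreROSA26DTA, adjusted p = 0.0462). Gzma, granzyme A of cytotoxic lymphocytes, rose by 1.08 ± 0.23 log2, Plat, the tissue plasminogen activator, by 0.81 ± 0.11, and Ctsl, the lysosomal cathepsin L, by 0.59 ± 0.09. Plau, the urokinase, fell by 1.03 ± 0.21 log2. Gzmb, the granzyme that Serpina3n inhibits, was dim on all arrays, and Ctsg, cathepsin G, was dim on both wild-type arrays and measured on both Nav1.8CreROSA26DTA arrays, so no LPS difference is given for it.

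Of the listed genes of the cytokine pathways named above, 13 of 26 tested were higher with LPS, 1 was lower and 12 did not pass, with a median of 0.80 log2. Osmr, the oncostatin M receptor, rose by 2.63 ± 0.13 (SE) log2. Cebpd, a C/EBP factor, rose by 1.91 ± 0.10, Socs3, the feedback inhibitor of STAT3 signalling, by 1.76 ± 0.12, and Nfkb2 by 1.68 ± 0.15 log2 (limma, adjusted p-values from 3.0e-06 to 0.000134 for these 4 genes). Stat3 itself rose by 0.62 ± 0.09 log2. The 1 gene that fell was Nr3c1, the glucocorticoid receptor, by 0.40 ± 0.09 log2 (adjusted p = 0.0263). Lif, Il1a and Ifng were dim on all arrays, and Il6 was well above background only on the Nav1.8CreROSA26DTA LPS array.

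Serpina3n is usually read together with other reactive astrocyte genes, and of 29 such genes tested 25 were higher with LPS, 0 lower and 4 not passing, with a median of 2.06 log2. Lcn2, lipocalin 2, which binds bacterial siderophores, rose by 8.30 ± 0.23 (SE) log2. Cxcl10, a chemokine for activated T cells, rose by 6.97 ± 0.17, Gbp2, an interferon-induced GTPase, by 5.18 ± 0.15, and Timp1, a metalloprotease inhibitor, by 4.24 ± 0.11 log2. Steap4, dim on both PBS arrays, was at least 5.64-fold higher. Gfap, the filament protein of astrocytes, rose by 1.89 ± 0.14 log2 (limma, adjusted p = 3.2e-05). With LPS, 22 of the 29 were higher in the Nav1.8CreROSA26DTA brain, by a median of 0.09 log2, beside 0.73 for Serpina3n. The difference between Serpina3n and this list was not tested.

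Several Serpina3 proteins are known from liver, so acute-phase genes and hepatocyte markers were read on the same arrays. Of 17 acute-phase genes tested, 11 were higher with LPS, 0 lower and 6 not passing, with a median of 2.65 log2. Saa3, an amyloid A protein made by macrophages and other cells outside the liver, was dim on both PBS arrays and at least 3113-fold higher with LPS. Saa1 rose by 4.80 ± 0.31 (SE), Saa2 by 4.30 ± 0.30 and A2m, the general protease trap alpha-2-macroglobulin, by 3.91 ± 0.23 log2 (limma, adjusted p-values from 7.6e-06 to 2.2e-05). Hp, haptoglobin, rose by 3.44 ± 0.23 log2 and was the listed gene that also passed for genotype (adjusted p = 0.00514). Of 12 hepatocyte markers, 6 were dim on all arrays (Alb, Apoa1, Apob, Ahsg, Ambp and Cps1). Apoa2, Apoh and Tat were measured on all arrays, Cyp2e1 on 3, and F2 and Ttr on 1 each. Apoa2 had levels of 2.30, 2.58, 2.35 and 2.30 log2 in wild-type PBS, Nav1.8CreROSA26DTA PBS, wild-type LPS and Nav1.8CreROSA26DTA LPS, the highest of the list. The summed hepatocyte marker level was 5.21, 6.20, 5.37 and 5.21 in the same order. Lcn2, Cp and Osmr each stand in more than 1 of these lists. All 5 neuron markers and 6 markers each of astrocytes, oligodendrocytes and microglia were measured on every array.

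The genes whose pattern over the 4 arrays lay nearest to a member were found by Euclidean distance of levels centred on their mean, among the 16244 genes measured on every array (16243 when the member is one of them). Nearest to Serpina3n were Fcgr4, an activating Fc receptor of myeloid cells (distance 0.37 log2), the transcript AW112010 (0.40) and Saa1 (0.57). Nearest to Serpina3m were Clec4a3, a C-type lectin of myeloid cells (0.16), Myo1g, a myosin of blood cells (0.25), and Lrrc25 (0.31). Serpina3i lay nearest to Ms4a4a (0.26), Clec4a1 (0.36) and Irak3, a brake on Toll-like receptor signalling (0.46). Serpina3j lay nearest to Krtap11-1 (0.24), the interferon-induced GTPase gene Gbp6 (0.28) and the tubulin gene Tubb6 (0.39). The gene nearest to Serpina3f was Serpina3n itself (0.95), before Fcgr4 (1.11) and Ms4a6c (1.18). For Serpina3f, Serpina3i and Serpina3j the distances use dim PBS signals, and with 4 arrays many genes share any one pattern.

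The LPS effect of each member was recomputed under the other settings tried. Serpina3n stayed between 4.26 and 5.40 log2, and it passed in each fit that used all arrays. Serpina3f and Serpina3j passed in each such fit that held them. They entered only through the LPS arrays on which they were bright, so their passing is a description. The setting that required every array to measure a gene left them out. The fitted values, 5.90 log2 for Serpina3f and 3.99 log2 for Serpina3j, rest on dim PBS signals and moved with their handling. They were 1.73 log2 for Serpina3f and 1.34 log2 for Serpina3j after normexp background correction, and at 4.01 and 3.73 log2 with dim signals set to the floor.

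**Figure D5:**
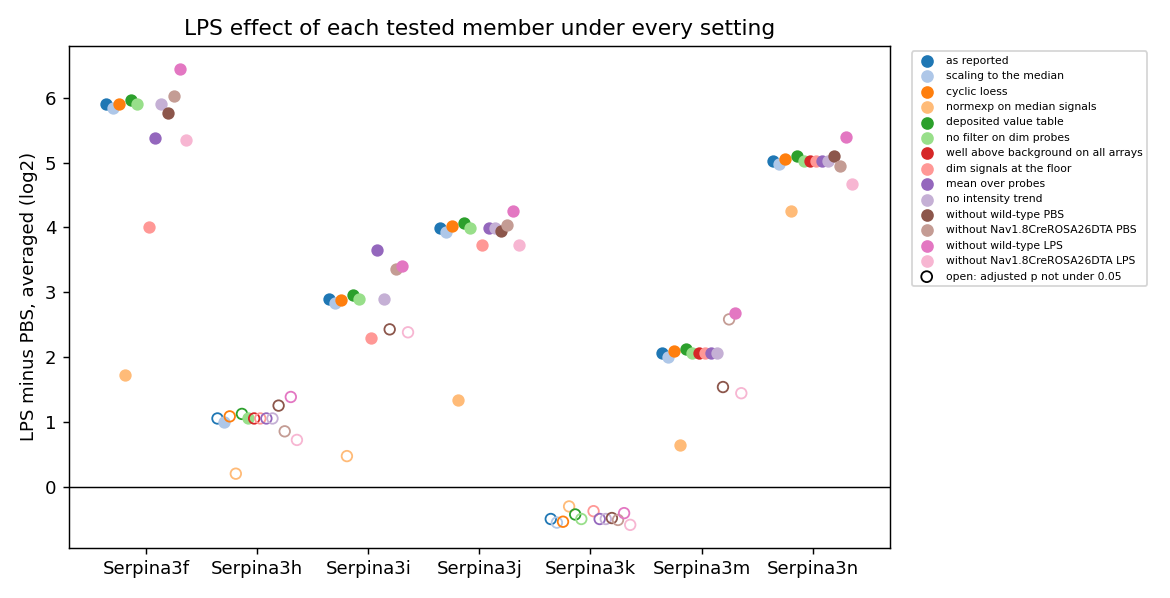
Averaged LPS effect (log2) of the 7 tested members under each setting, with 1 point per setting and open points where the adjusted p was not under 0.05. Serpina3n stays between 4.26 and 5.40, while normexp correction gives smaller values, 1.73 for Serpina3f, 1.34 for Serpina3j, 0.48 for Serpina3i, 0.65 for Serpina3m and 0.21 for Serpina3h.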

How the data were processed

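Whole-brain RNA of 4 mouse groups was measured on 1 single-colour Agilent array each. The software was Feature Extraction, version 11.0.1.1 in the submitters' processing notes and 12.0.3.1 in the file headers, with an mm9 design grid. The deposited processed signal, an intensity, is background-subtracted and detrended within the array, as the file headers state. A value table, also deposited by the authors, held the same intensity times 1.82, 2.09, 1.83 and 1.57 (wild-type PBS, Nav1.8CreROSA26DTA PBS, wild-type LPS, Nav1.8CreROSA26DTA LPS), with column medians of 97.2, 91.4, 103 and 102. The origin of these factors is not stated there.

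Here, log2 intensity minus the array's 75th percentile (612, 514, 634 and 726) was used. All arrays lay on 1 slide in 1 scan, with slide position tied to the groups, and the effect of position cannot be told apart from theirs. Spots well above background made up 66.5% to 69.5% of an array. There were 0 saturated spots, and 81 to 96 outliers per array were dropped. Accessions gave 59.7% of probes a symbol through a RefSeq GRCm38.p6 table. A gene took its probe well above background on most arrays, then the brightest. Genes well above background on at least 2 arrays (17132) were fitted with limma 3.58.1 in R 4.3.3, genotype plus injection, intensity trend, 1 residual degree of freedom and a median 7.99 prior degrees of freedom, two-sided, Benjamini-Hochberg at 0.05. The model, checked on simulated data, counts a true difference between the genotypes' LPS responses as error. P-values rest on the departure of single arrays from the additive model, pooled over genes. They hold no spread between arrays of a group, since each group has 1. The number of arrays limits the precision of every value. Members, gene lists and motifs were chosen with earlier results of these data known. Named genes were all members, the nearest 3 genes of each passing member, and from each list the up to 5 largest LPS effects among passing genes plus measured clade A serpins; Stat3, Gfap, Ctsg, hepatocyte markers, Gzmb, Nr3c1, Hp and dim genes were named after their values were seen. A few listed genes are not reported here.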

Additional observations from a re-analysis of the deposited data

Results flagged for a closer look

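For 2 of the 3 members measured on all arrays, the genotypes differed in one direction with PBS and in the other with LPS. The share of all genes with such a change of sign was not counted, so these 2 cannot be set against it. Serpina3h was 0.40 log2 lower in the Nav1.8CreROSA26DTA brain with PBS and 0.66 log2 higher with LPS, so the genotype difference moved by 1.06 log2 between injections. Serpina3n differed by -0.16 log2 with PBS and by 0.73 log2 with LPS, a move of 0.89 log2. With 1 array per group the difference was not tested in either case. After normexp background correction the Serpina3h differences were 0.04 log2 with PBS and 0.19 log2 with LPS, a move of 0.16 log2 with no opposite signs. For Serpina3n they were -0.03 and 0.72 log2, a move of 0.75 log2.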

How the results depend on the processing

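No paired analysis was possible because each group has 1 array and the labels give no replicate numbers. The normexp correction was run on median signals, a choice made after seeing the data. Fits with 1 array left out held injection alone or genotype alone. They therefore differ from the reported model in more than the missing array. In the LPS test, the 963 genes higher became 1583 with no filter on dim probes, 382 without the intensity trend and 370 to 514 when 1 array was left out. The 777 lower became 1292 with median scaling, 463 with cyclic loess, 1179 with normexp, 433 in the deposited table, 1567 with no filter, 501 with the mean over probes, 48 without the trend and 70 to 187 with 1 array left out. Of members, 5 were higher, 2 when all 4 arrays had to measure a gene, and 3 to 5 with 1 array left out; 3 remained without wild-type PBS or without Nav1.8CreROSA26DTA LPS. Serpina3i also missed the threshold with normexp (0.48 log2, adjusted p = 0.13), and Serpina3h passed with no filter (adjusted p = 0.0115). For genotype, the 52 genes higher became 166 (median scaling), 21 (loess), 264 (normexp), 20 (deposited table), 654 (no filter), 11 (mean over probes), 0 (no trend) and 0 (1 array left out), and the 18 lower became 31, 8, 137, 8, 304, 1, 0 and 0. With no filter 1 member passed for genotype, Serpina3m (adjusted p = 0.0159).

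With 1 array left out, genotype and injection are unbalanced. The genotype fit then held no injection term, so its value mixes in the LPS effect and is no measure of genotype alone. These mixed values ran from -2.48 to 3.84 log2 for Serpina3f, -0.66 to 0.93 for Serpina3h, -0.50 to 2.44 for Serpina3i and -1.79 to 2.42 for Serpina3j. They ran from -0.22 to 0.37 for Serpina3k, 0.06 to 2.22 for Serpina3m and -2.45 to 3.03 for Serpina3n. With all arrays and dim signals at the floor, the genotype effect of Serpina3k was -0.045 log2. Between 2 arrays, members at least 2-fold higher with LPS in wild-type (2) numbered 1 with normexp, 6 with no filter and 5 at the floor, and in Nav1.8CreROSA26DTA (3) 1, 7 and 6. Those higher by any amount (3 in each genotype) numbered 7 with no filter and 6 at the floor. For genotype with PBS, the 1 member at 2-fold became 0 with normexp and in the deposited table, and the 1 higher by any amount became 2 with median scaling, 3 with normexp and 5 with no filter. For genotype with LPS, the 3 at 2-fold became 0 with normexp, and 1 with all arrays required or with the mean over probes; the 6 higher by any amount became 3 with all arrays required, which leaves 3 members to compare. The 3 members with the larger response in Nav1.8CreROSA26DTA became 8 with no filter and 6 at the floor. Normexp changed the sign of Serpina3h and Serpina3k with PBS and lowered the 2-fold counts, and the cause was not tested. Scaling moved the median LPS effect of all genes to between -0.0884 and 0.0368 log2.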
